A study of Caenorhabditis elegans with 10 samples.

Results

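The genes described here encode voltage-gated calcium channel subunits of *Caenorhabditis elegans* and the calcium-activated potassium channel *slo-1*. Their rows were found by gene identifier and not by a measured value, although the list of genes was drawn up with earlier results of these data known: *unc-2*, *egl-19*, *cca-1* and *unc-36* for the calcium channels, and *slo-1*. Of these 5 genes 4 had a row among the 18451 rows of the table, namely *egl-19* (WBGene00001187), *cca-1* (WBGene00000367), *unc-36* (WBGene00006772) and *slo-1* (WBGene00004830). *unc-2* (WBGene00006742) was not analysed here.

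RNA was taken from L2/L3 larvae raised at 25 °C, with 1 Affymetrix tiling array per sample and 4 groups. The groups were *mec-3(e1338)* mutant PVD/OLL neurons (3 arrays), wild-type (N2) PVD/OLL neurons (3 arrays), *mec-3(e1338)* whole animals (2 arrays) and wild-type (N2) whole animals (2 arrays). PVD is a nociceptive neuron with a branched dendrite along the body wall, OLL is a sensory neuron pair of the head, and PVD needs *mec-3*, which encodes a transcription factor of the LIM homeodomain family, for its branching. PVD/OLL RNA was recovered by mRNA tagging: PAB-1, which binds poly(A) tails, carried a 3X FLAG tag and was driven by the *ser-2*prom3B promoter, and its bound messages were immunoprecipitated. That promoter drives expression in both cell types, so PVD and OLL are read together, and messages carried along from other cells are not separated from theirs. Whole-animal RNA was total RNA with no immunoprecipitation. The samples are titled biological replicates, and nothing further is said of separate cultures.

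Voltage-gated calcium channels open when the membrane depolarises and let calcium into the cell. Their pore is the alpha1 subunit, which exists in an L-type, an N/P/Q-type and a low-threshold T-type family, and worms have a single gene for each. *egl-19* encodes the L-type pore, which carries the calcium current of body wall muscle and also acts in neurons. *unc-2* encodes the presynaptic N/P/Q-type pore that triggers transmitter release. *cca-1* encodes the T-type pore, which opens at voltages close to rest and helps to start action potentials in pharyngeal muscle. *unc-36* encodes an alpha2-delta subunit, an accessory protein that brings alpha1 subunits to the membrane and shapes their currents. *slo-1* encodes the pore of the BK potassium channel, which is opened by calcium together with depolarisation and limits transmitter release and muscle excitation. All of these genes act in many neurons, and several in muscle.

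Values are the deposited log2 values, 1 per gene and array, and a difference of 1 is 2-fold. They are compared between samples for a given gene and not between genes, since genes are read by different probes. In this bulk material fewer cells of a type and less RNA per cell cannot be told apart. Array medians lay between 6.51 and 6.77, and arrays of a group correlated at 0.952 to 0.984, lowest in the wild-type whole-animal pair and next lowest in wild-type PVD/OLL. All 4 genes lay above the median of the table on all 10 arrays. The closest was *cca-1* in *mec-3* whole animals, at the 54.2 and 50.2 percentile of the array. No measure of background was used here, so it is not known whether that level stood above it. Marker genes of PVD, OLL, muscle or other cells, and *mec-3* itself, were not analysed here because the other identifiers are not paired with names in the sources used, so the labelled cell type and genotype were not checked against them.

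The T-type channel gene *cca-1* had the largest differences of the 4 genes between kinds of sample. In *mec-3* PVD/OLL it measured 7.78, 7.69 and 7.66, and in wild-type PVD/OLL 8.18, 7.87 and 7.38. In *mec-3* whole animals it measured 6.91 and 6.65, and in wild-type whole animals 7.40 and 7.18. The *mec-3* PVD/OLL arrays all lay above both *mec-3* whole-animal arrays, as for 19.9% of all rows, with 0.75 between the nearest. Wild-type PVD/OLL replicate 3, at 7.38, lay just below the higher wild-type whole-animal array.

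The L-type gene *egl-19* measured 8.12, 8.15 and 8.15 in *mec-3* PVD/OLL, and 8.22, 8.17 and 7.86 in wild-type PVD/OLL. Its whole-animal values were 7.59 and 7.36 in *mec-3*, and 8.14 and 7.16 in wild type. The *mec-3* neuron arrays lay within 0.027 of each other, whereas the wild-type whole-animal arrays were 0.98 apart, with replicate 1 at the level of the neurons and replicate 2 below every other array.

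The alpha2-delta gene *unc-36* was the steadiest of the 4. It measured 8.98, 8.92 and 9.10 in *mec-3* PVD/OLL, and 8.998, 8.74 and 8.83 in wild-type PVD/OLL. In whole animals it measured 8.86 and 9.10 in *mec-3*, and 8.89 and 9.43 in wild type. The groups overlapped throughout. Around its own mean *unc-36* varied by a root mean square of 0.18 over the 10 arrays, and 2.47% of all rows varied less. Among the 4025 rows whose mean lay within the span of these 4 genes, 2.46% did.

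The BK channel gene *slo-1* measured 7.49, 7.67 and 7.52 in *mec-3* PVD/OLL, and 8.24, 7.51 and 7.62 in wild-type PVD/OLL. In whole animals it measured 7.23 and 7.11 in *mec-3*, and 7.55 and 7.34 in wild type. A single array, wild-type PVD/OLL replicate 1, stood 0.62 above the next of its group. Its root mean square variation over the 10 arrays was 0.29, against 0.37 for *egl-19* and 0.44 for *cca-1*.

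**Figure D1:**
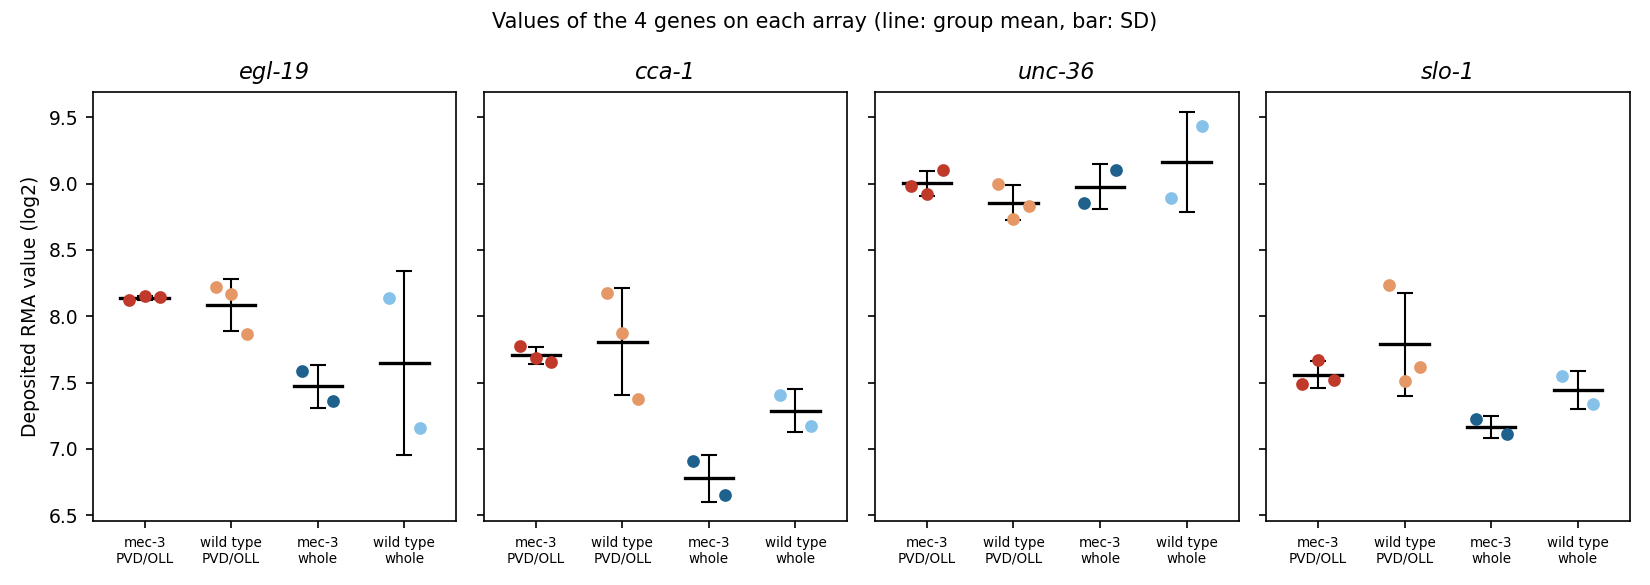
Deposited values (log2, vertical axis) of *egl-19*, *cca-1*, *unc-36* and *slo-1* on each array, with the 4 groups along the horizontal axis. Points are arrays, black lines group means and bars the SD (3 arrays per PVD/OLL group, 2 per whole-animal group). *cca-1* is lowest in *mec-3* whole animals, at 6.91 and 6.65, and the wild-type whole-animal arrays of *egl-19* are 0.98 apart.

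The neurons of both genotypes were compared to ask whether their transcripts depend on *mec-3*. Of the 4 channel genes 0 were called different there at a limma adjusted p under 0.05, and none at an unadjusted p under 0.05 either, where 6.13% and 21.1% of all rows did. The share of all rows with an adjusted p under 0.05 was 2.45% to 5.61% with 1 array left out. *egl-19* averaged 8.14 ± 0.014 in *mec-3* neurons and 8.08 ± 0.19 in wild-type neurons (log2, SD, n = 3 each), a difference of 0.056 (SE 0.18, limma adjusted p = 0.894). *cca-1* averaged 7.71 ± 0.064 in *mec-3* neurons and 7.81 ± 0.40 in wild-type neurons, a difference of -0.10 (SE 0.23, limma adjusted p = 0.850). *unc-36* averaged 9.002 ± 0.092 in *mec-3* neurons and 8.86 ± 0.13 in wild-type neurons, a difference of 0.15 (SE 0.17, limma adjusted p = 0.689). The median difference over all rows was -0.067. Array medians lay at 6.51 to 6.54 in *mec-3* neurons and at 6.59 to 6.64 in wild-type neurons. With each array centred on its median the differences became 0.15 for *egl-19*, -0.0069 for *cca-1* and 0.24 for *unc-36*.

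On the deposited values *slo-1* had the widest difference in size, at 7.56 ± 0.10 in *mec-3* neurons and 7.79 ± 0.39 in wild-type neurons (-0.23, SE 0.23, limma adjusted p = 0.629). With each array centred on its median the *slo-1* difference was -0.13. Without wild-type replicate 1 it became -0.0054 on the deposited values. The groups overlapped for all 4 genes, against 27.4% of all rows whose groups did not. The 95% intervals, as folds of *mec-3* over wild type, were 0.784 to 1.38 for *egl-19*, 0.647 to 1.34 for *cca-1*, 0.842 to 1.46 for *unc-36* and 0.594 to 1.23 for *slo-1*. Changes of 2-fold in either direction lay outside all of them, and changes within them are not excluded. The intervals do not say how large a change would have been called.

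In whole animals the same comparison also called 0 of the 4 genes (limma adjusted p under 0.05), with none at an unadjusted p under 0.05, against 5.54% and 21.5% of all rows. The first share was 0.829% and 0.867% without a *mec-3* array, and 8.62% and 3.73% without a wild-type array. All 4 values lay below 0, where 47.5% of all rows lay above it and the median over all rows was -0.032. Among the 4025 rows whose mean lay within the span of these 4 genes, 56.7% lay above 0 and the median was 0.11. The 4 values share the same arrays. *cca-1* averaged 6.78 ± 0.18 in *mec-3* animals and 7.29 ± 0.16 in wild-type animals (n = 2 each), a difference of -0.51 (SE 0.28, limma adjusted p = 0.363). *slo-1* averaged 7.17 ± 0.083 in *mec-3* animals and 7.44 ± 0.14 in wild-type animals, a difference of -0.28 (SE 0.27, limma adjusted p = 0.644). For *cca-1* and *slo-1* both *mec-3* arrays lay below both wild-type arrays, as for 25.4% of all rows.

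*egl-19* averaged 7.47 ± 0.16 in *mec-3* animals and 7.65 ± 0.69 in wild-type animals. *unc-36* averaged 8.98 ± 0.17 in *mec-3* animals and 9.16 ± 0.38 in wild-type animals. The difference was -0.17 for *egl-19* (SE 0.38, limma adjusted p = 0.860) and -0.19 for *unc-36* (SE 0.31, limma adjusted p = 0.806). Both changed sign with 1 wild-type array left out: *egl-19* was 0.31 without replicate 1, and *unc-36* 0.083 without replicate 2. With 2 arrays per genotype the 95% intervals were wide, from 0.465 to 1.69 for *egl-19* and from 0.442 to 1.12 for *cca-1* as folds.

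PVD/OLL was set against whole animals to ask which transcripts the tagged neurons hold at a higher level than the body. In *mec-3* animals 1 of the 4 genes, *cca-1*, was called, and it was higher, where 26.7% of all rows were called and 7.59% were called higher. Among the 4025 rows whose mean lay within the span of the 4 genes, 14% were called higher and 13.7% lower. Without 1 of the 5 *mec-3* arrays 10.4% to 17.2% of all rows were called. *cca-1* averaged 7.71 ± 0.064 in PVD/OLL and 6.78 ± 0.18 in whole animals (SD, n = 3 and 2), so it was 1.90-fold higher in the neurons (95% interval 1.29 to 2.79). On the log2 scale the difference was 0.93 (SE 0.25, limma adjusted p = 0.0221). The size of the *cca-1* difference lay between 0.80 and 1.05 with any array left out, but its call was lost without any 1 of the 5 *mec-3* arrays (limma adjusted p = 0.0548 to 0.131).

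*egl-19* averaged 8.14 ± 0.014 in *mec-3* PVD/OLL and 7.47 ± 0.16 in *mec-3* whole animals, a difference of 0.67 (SE 0.28, limma adjusted p = 0.0970). All of its PVD/OLL arrays lay above both whole-animal arrays, as for 19.9% of all rows. It did not pass without any 1 of the 5 *mec-3* arrays, at 0.55 to 0.78 (limma adjusted p = 0.169 to 0.329), or without any 1 of the 3 wild-type PVD/OLL arrays (limma adjusted p = 0.0888 to 0.118). It passed with the 5 *mec-3* arrays alone and with array weights (limma adjusted p = 0.0232 and 0.0328), and also without either wild-type whole-animal array (limma adjusted p = 0.0324). The difference of *slo-1* was 0.39 (SE 0.25, limma adjusted p = 0.251), again with all PVD/OLL arrays above both whole-animal arrays, and that of *unc-36* 0.024 (SE 0.23, limma adjusted p = 0.945).

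In wild type 0 of the 4 genes were called (limma adjusted p under 0.05), with none at an unadjusted p under 0.05, where 28.6% and 42.3% of all rows did, the first being 12.5% without wild-type whole-animal replicate 2. *cca-1* averaged 7.81 ± 0.40 in PVD/OLL and 7.29 ± 0.16 in whole animals, a difference of 0.52 (SE 0.25, limma adjusted p = 0.141). It passed without wild-type PVD/OLL replicate 3, at 0.73 (limma adjusted p = 0.0329), and stood at 0.33 without PVD/OLL replicate 1 (limma adjusted p = 0.346) and at 0.40 without whole-animal replicate 2 (limma adjusted p = 0.416). *egl-19* differed by 0.44 (SE 0.28, limma adjusted p = 0.255), and this value rested on the whole-animal pair: it was 0.93 without replicate 1 (limma adjusted p = 0.0253) and -0.052 without replicate 2 (limma adjusted p = 0.909). *slo-1* differed by 0.34 (SE 0.25, limma adjusted p = 0.308) and *unc-36* by -0.31 (SE 0.23, limma adjusted p = 0.321). Without wild-type PVD/OLL replicate 1 *slo-1* stood at 0.12. *unc-36* stood at -0.58 without whole-animal replicate 1 and at -0.039 without replicate 2.

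Averaged over both genotypes, a contrast added after the data were seen, *cca-1* and *egl-19* were higher in PVD/OLL than in whole animals. These are 2 of the 4 genes, where 47.2% of all rows were called and 14.4% were called higher. Of the 4025 rows whose mean lay within the span of the 4 genes, 25.9% were called higher. *cca-1* was 1.65-fold higher (log2 difference 0.72, SE 0.18, limma adjusted p = 0.00740, 95% interval 1.26 to 2.17), and its call held with each of the 10 arrays left out, at 0.63 to 0.83. *egl-19* was 1.47-fold higher (0.55, SE 0.20, limma adjusted p = 0.0393, 95% interval 1.09 to 1.98). The *egl-19* call was lost without any 1 of 8 arrays (limma adjusted p = 0.0648 to 0.152), and the wild-type whole-animal pair set its size: leaving out replicate 2 gave 0.31, leaving out replicate 1 gave 0.80.

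*slo-1* stood at 1.29-fold (0.37, SE 0.17, limma adjusted p = 0.102, 95% interval 0.990 to 1.68), and *unc-36* at 0.906-fold (-0.14, SE 0.16, limma adjusted p = 0.483, 95% interval 0.711 to 1.16). The interval of *unc-36* holds no 2-fold difference in either direction. The median difference of the 4 genes was 0.46, against -0.25 over all rows. Over the 4025 rows whose mean lay within the span of the 4 genes it was 0.079.

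**Figure D2:**
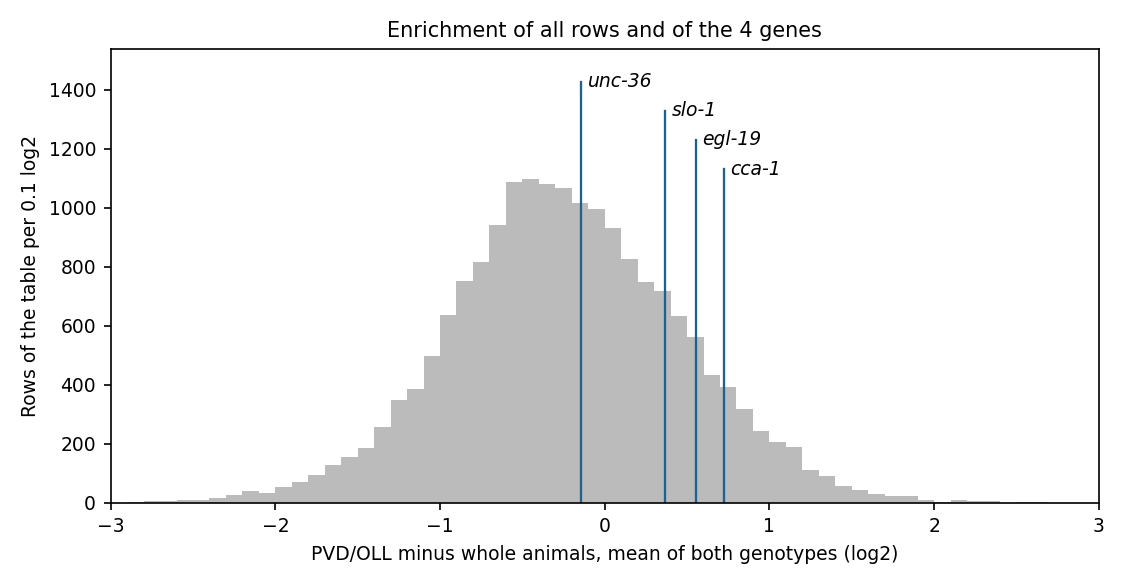
Number of table rows (vertical axis) by the PVD/OLL minus whole-animal difference averaged over both genotypes (log2, horizontal axis, bars 0.1 wide, with 16 rows beyond the plotted range). Blue lines mark *unc-36* at -0.14, *slo-1* at 0.37, *egl-19* at 0.55 and *cca-1* at 0.72, the last above 90.9% of all rows.

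Only the PVD/OLL samples were immunoprecipitated, and how arrays of the 2 kinds were normalized relative to each other is not given. These differences thus mix cell type with preparation and processing, and the 3 cannot be told apart. In *mec-3* animals the median over all rows was -0.28, and 0.015 after quantile normalization. The medians in wild type were -0.21 and 0.033. With quantile normalization 1900 rows were called higher and 1702 lower in *mec-3*, against 1400 and 3521 on the deposited values. For the mean of both genotypes it gave 3788 and 3441, against 2660 and 6055. Centring each array on its median gave 1746 and 2671 in *mec-3*, and 3249 and 5012 for the mean of both. Relative to the median of all rows, the deposited values put *cca-1* at 1.21 and 0.73, *egl-19* at 0.95 and 0.65, and *slo-1* at 0.68 and 0.56, in *mec-3* and wild type. Those of *unc-36* were 0.31 and -0.10. Against the 4025 rows whose mean lay within the span of the 4 genes the same values would be lower, since the medians of those rows were 0.037 in *mec-3* and 0.14 in wild type. Quantile normalization left *cca-1* at 0.94 in *mec-3*, with the call kept (limma adjusted p = 0.0231). For the average over genotypes those 4025 rows had a median of 0.079, with 25.9% of them called higher and 21.1% called lower.

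**Figure D3:**
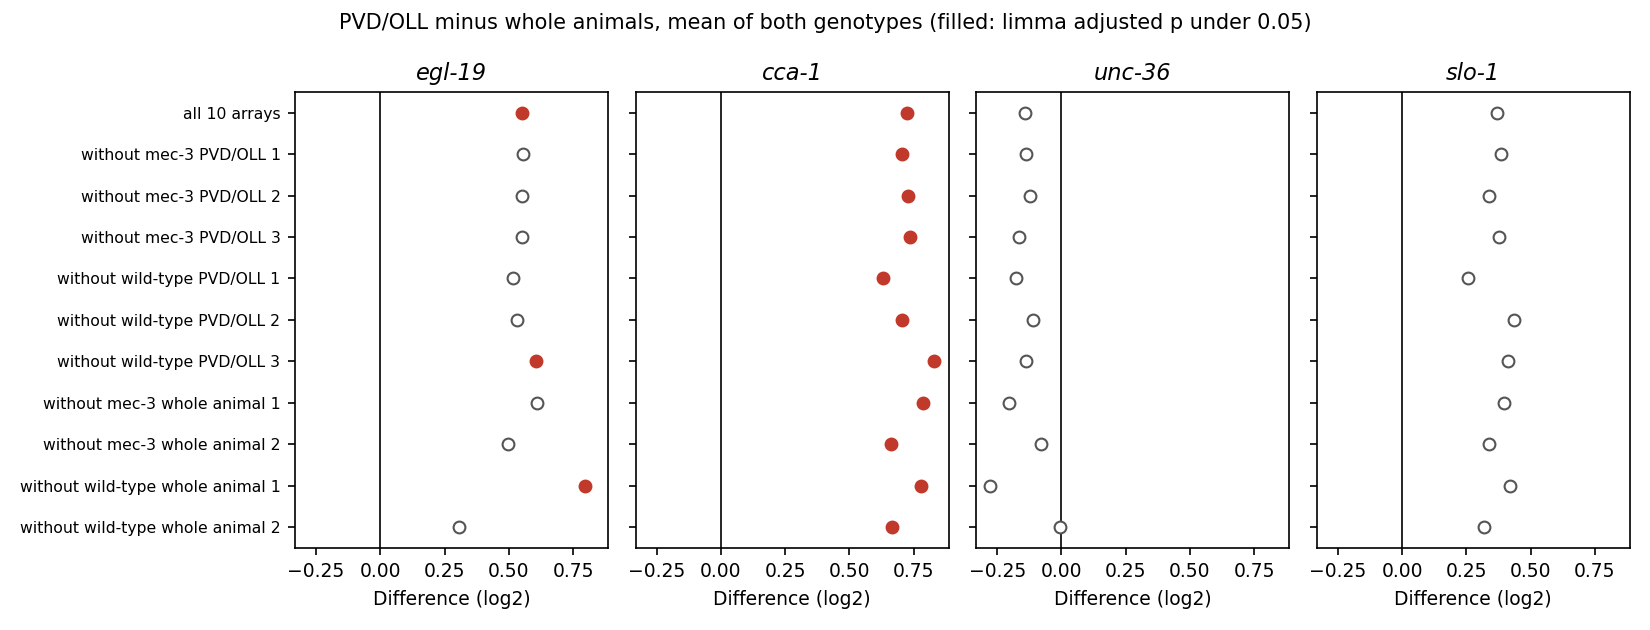
PVD/OLL minus whole-animal difference averaged over both genotypes (log2, horizontal axis) for each of the 4 genes, with all 10 arrays and with each array left out in turn (rows). Filled red points passed limma at an adjusted p under 0.05, open points did not. *cca-1* stays between 0.63 and 0.83 and passes in every row, and *egl-19* runs from 0.31 to 0.80.

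The difference of differences asked whether neurons and whole animals responded unequally to the loss of *mec-3*. With all 10 arrays it called 0 of the 4 genes (limma adjusted p under 0.05), with none at an unadjusted p under 0.05, where 0.00542% and 9.8% of all rows did. The call of *cca-1* in *mec-3* and not in wild type is thus not shown to be a difference between genotypes: its value was 0.41 (SE 0.36, limma adjusted p = 0.788, 95% interval -0.38 to 1.19 in log2). *unc-36* stood at 0.33 (SE 0.32, limma adjusted p = 0.812), *egl-19* at 0.23 (SE 0.39, limma adjusted p = 0.911) and *slo-1* at 0.047 (SE 0.35, limma adjusted p = 0.985). With 1 array left out *cca-1* ran from 0.19 to 0.59, *unc-36* from 0.064 to 0.60, *egl-19* from -0.26 to 0.72 and *slo-1* from -0.091 to 0.27. The enrichments and the genotype differences share arrays, so they are given side by side and not as support for each other.

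**Figure D4:**
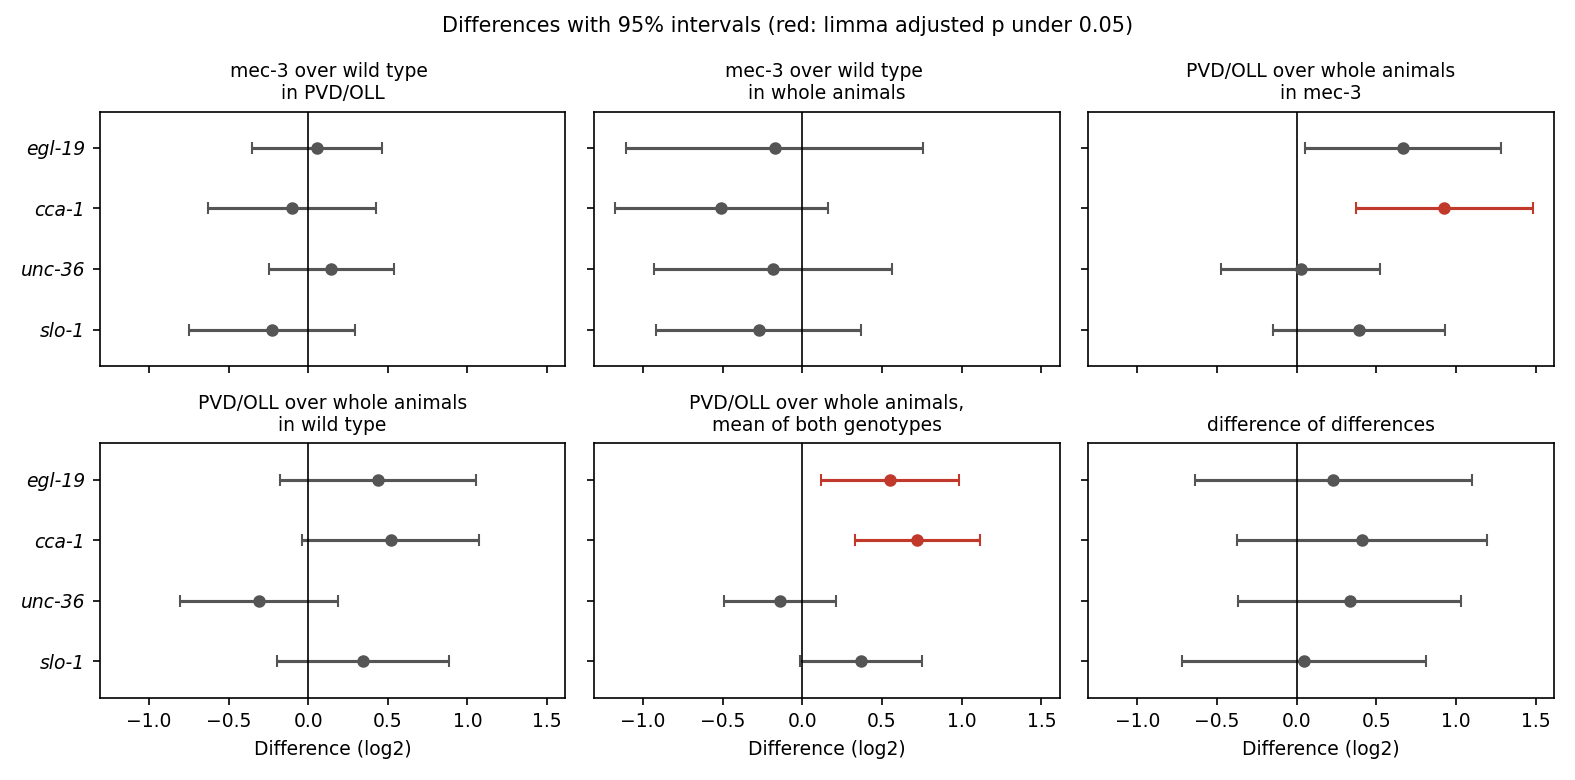
Difference (log2, horizontal axis) of *egl-19*, *cca-1*, *unc-36* and *slo-1* in each comparison, 1 panel per comparison, with limma 95% intervals as bars. Red marks an adjusted p under 0.05 over all rows: *cca-1* for PVD/OLL over whole animals in *mec-3*, and *cca-1* and *egl-19* for the mean of both genotypes.

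By mean level the 3 genes *cca-1*, *egl-19* and *slo-1* shared an order in which both PVD/OLL groups came above wild-type whole animals, and *mec-3* whole animals came last. The share of all rows with that order was not counted, so it is not known whether it is unusual. For *egl-19* the wild-type PVD/OLL minus whole-animal difference was -0.052 without wild-type whole-animal replicate 2. Neighbouring groups in that order overlapped or did not pass a test, except for *cca-1* between *mec-3* PVD/OLL and wild-type whole animals. There all PVD/OLL arrays lay above both whole-animal arrays. That pair was not tested, and the share of all rows separated in it was not counted. *unc-36* ran otherwise, with wild-type whole animals highest at 9.16 and wild-type PVD/OLL lowest at 8.86. The likeness of 2 genes was measured as the root mean square difference of their values over the 10 arrays, each centred on its own mean. It was 0.25 between *cca-1* and *egl-19*, 0.25 between *cca-1* and *slo-1* and 0.28 between *egl-19* and *slo-1*, against 0.37 to 0.52 between *unc-36* and the other 3 genes. A row equal on all arrays would stand at 0.29 from *slo-1*, the variation of *slo-1* itself, so its 2 lower values show little likeness. Among all rows ordered by likeness to *egl-19*, *cca-1* ranked 312 and *slo-1* 554. By likeness to *cca-1*, *slo-1* ranked 270. All pairs share the arrays and their scaling.

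None of the 4 genes was among the 3 rows most like any other of them. The row closest to *egl-19* was WBGene00006324, at 0.084, and the row closest to *cca-1* was WBGene00018533, at 0.13, where the median over all rows was 0.64 and 0.70. For *unc-36* it was WBGene00008977, at 0.097, and for *slo-1* WBGene00009365, at 0.11, where the medians were 0.48 and 0.58. These identifiers are not paired with names in the sources used. WBGene00006324 measured 7.84 ± 0.061 in *mec-3* PVD/OLL (SD, n = 3) and 7.39 ± 0.72 in wild-type whole animals (n = 2). Its wide wild-type pair, like that of *egl-19*, follows from its choice as the closest row on these same arrays. For the same reason each closest row had to lie below the median.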

How the data were processed

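The authors' deposited log2 values, 1 per gene identifier and array, were made with RMA (version not stated), per the submitters' processing notes. The log2 scale was read from the values. The sources used here give no gene models, build, probe assignment or filters. The table holds 18451 rows and 0 missing values, and 0 columns lacked a sample. Symbols of the 5 genes came with the gene list; 0 of 18451 identifiers matched the reference table of names (46926 rows), so the 13 planned lists of pathway and marker genes were not tested and no sequence is shown.

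Genes, lists and comparisons were chosen with earlier results of these data known, and the genes' rows were then looked up by identifier alone. Each comparison was fitted in R 4.3.3 with limma 3.58.1 (lmFit, then eBayes), without a filter, two-sided, with Benjamini-Hochberg adjustment over all rows. The genotype comparisons used the 6 PVD/OLL or the 4 whole-animal arrays, the others all 10 with a mean per group. The text names all 5 genes and, by a fixed rule, the row most like each; of the 3 most like rows per gene, only the closest is given.

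Same-numbered replicates deviated together at r = -0.058 to 0.047 across genes, so numbers were not taken as pairs. Alternatives were 2 other scalings, a filter, another prior, array weights, other arrays in the fit, a replicate block and each array left out. Tested on simulated data with 200 of 18451 rows changed, the *mec-3* over wild type fit recovered 11.9% of 2-fold and 83.6% of 4-fold changes in PVD/OLL, and 0% and 13.4% in whole animals. In the data a larger share of rows was called, 6.13% and 5.54%. The adjustment depends on that share, so these rates do not carry over directly. The number of arrays limits the precision of all values.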

Additional observations from a re-analysis of the deposited data

How the results depend on the processing

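The comparisons of *mec-3* with wild type and the difference of differences called 0 of the 4 genes under each alternative tried. For PVD/OLL over whole animals in *mec-3*, the 1 called gene became 2 with array weights and 2 with the 5 *mec-3* arrays alone, and 0 to 2 with an array left out. In wild type the count of 0 became 0 to 1 with an array left out, and for the mean of both genotypes 2 became 1 to 2. The fit with a replicate block changed none of these counts: *cca-1* in *mec-3* stood at 1.05 (log2, limma adjusted p = 0.0175), against 0.93 without the block.

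Signs turned only with an array left out, in values that passed no test with all arrays; of these *egl-19* in wild type passed without whole-animal replicate 1. For *mec-3* over wild type in PVD/OLL these were *cca-1* (-0.32 to 0.083) and *egl-19* (-0.055 to 0.12). In whole animals they were *egl-19* (-0.66 to 0.31) and *unc-36* (-0.45 to 0.083). For PVD/OLL over whole animals they were *unc-36* in *mec-3* (-0.098 to 0.15) and *egl-19* in wild type (-0.052 to 0.93). In the difference of differences they were *slo-1* (-0.091 to 0.27) and *egl-19* (-0.26 to 0.72). The cause was not tested. Counts over all rows also moved. In whole animals *mec-3* over wild type called 1591 of the 9225 rows left without the dimmest 50%, or 17.2%, against 5.54% of all 18451. For *mec-3* over wild type 1131 became 1806 with array weights in PVD/OLL, and 1023 became 2481 with all 10 arrays in whole animals. Leaving out 1 array gave 452 to 1036 and 153 to 1591, lowest without PVD/OLL replicate 3 and whole-animal replicate 2 of *mec-3*. For PVD/OLL over whole animals in wild type 5269 became 2451 with wild-type arrays alone and 2304 without wild-type whole-animal replicate 2. In *mec-3* 4921 became 1926 without *mec-3* whole-animal replicate 2. No background or detection measure was used, and 2 arrays per whole-animal group limit all comparisons that use them.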
